A study of Sus scrofa with 8 samples.

Results

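The chaperone and ER folding genes of porcine pancreatic ductal organoids (PPDO) were 77 of the 30282 genes in the count table. They were taken by symbol: the HSPA, HSPB, HSP90, DNAJA, DNAJB, DNAJC and PDIA families with HSPH1, HSPD1 and HSPE1, and CALR, CANX, XBP1, HYOU1, ERO1A, ERO1B, HERPUD1, SEL1L, CRELD2 and MANF. By their usual place in the cell, 27 belong to the endoplasmic reticulum (ER), 39 to the cytosol or nucleus and 9 to mitochondria, and 2 (DNAJC22 and HSPB11) were not assigned. RNA sequencing covered 4 PPDO lines, each grown in 2 media for 7 days, which gave 8 libraries. The pancreas behind Em was embryonic, that behind LPN late postnatal and those behind EPN1 and EPN2 early postnatal, so that the embryonic and the late postnatal stage are represented by 1 line each. Complete medium (titled Control in the sample records) held N2 and B27 supplements, A83-01, Y-27632, nicotinamide and N-acetylcysteine together with prostaglandin E2, WNT3a, R-spondin, noggin, FGF10, EGF and gastrin. By its listed recipe, differentiation medium (titled Treated) was the same medium without those last 7 factors. For maintaining PPDO, the paper replaced WNT3a, R-spondin and noggin with a conditioned medium supplement (L-WRN). Which form the sequenced cultures in complete medium received is not stated. The donor pigs were wild type or carried an INS-eGFP reporter, and the sources used here do not say which line came from which. Another field of the records names an endocrine induction medium for all 8 cultures, and the titles decided the assignment here.

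Secreted and membrane proteins are folded in the ER, where the HSP70 chaperone BiP (HSPA5) and its J protein partners hold unfolded chains, calnexin and calreticulin retain glycoproteins, and protein disulfide isomerases (the PDIA genes) form disulfide bonds with oxidizing power supplied by the ERO1 enzymes. When unfolded proteins build up, the unfolded protein response raises many of these genes together, in part through the transcription factor XBP1. Cytosolic HSP70 and HSP90 chaperones serve the rest of the proteome and are raised by heat shock factors, and a separate set works in the mitochondrial matrix. The duct epithelium of the pancreas secretes bicarbonate and mucins, while the acinar cells around it are known for a very large ER.

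Library totals ranged from 40553593 to 47910657 counts, of which the members took 0.870% to 1.29%. Levels are given in CPM (counts per 1e6 counts of the library) scaled by the TMM method, whose factors lay between 0.935 and 1.06, and no correction for gene length was made here, so that they are read between libraries and not between genes. Duct markers were abundant, with a sum over 8 genes of 6571 to 9112 CPM in complete and 3823 to 14138 CPM in differentiation medium, and the library of EPN2 in differentiation medium had the lowest sum. Among acinar markers CTRC carried nearly all of the sum (124 to 158 and 149 to 320 CPM), while PNLIP and CPB1 were at 0 in every library. Endocrine markers summed to 0.898 to 24.5 CPM and stromal markers to 0.958 to 9.82 CPM. Endothelial markers summed to 36.4 to 86.7 CPM, and 5 of the 6 passed the expression filter, while CDH5 was at most 0.0226 CPM. The sum of the immune markers (1036 to 1846 CPM) rested on CD79A, a B cell gene, at 1022 to 1804 CPM, whereas the pan-leukocyte gene PTPRC was at most 2.17 CPM. In these bulk libraries, fewer cells of a type and less RNA per cell cannot be told apart.

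Of the 27 ER members 19 had a lower fitted level in differentiation than in complete medium, whereas 20 of the 30 tested cytosolic members had a higher one. Within the ER the direction went with the role: 7 of the 8 lumenal chaperones and 5 of the 7 disulfide enzymes were lower in all 4 lines, as was 1 of the 9 J proteins. All 27 ER members passed the expression filter of edgeR, and their median log2 fold change (differentiation over complete medium) was -0.46, beside 0.01 over all 14475 genes tested. The median of the 30 cytosolic members that passed was 0.13 and that of the 9 mitochondrial members was -0.22. Within lines, the median log2 ratio of the ER members was -0.35 in Em, -0.42 in LPN, -0.15 in EPN1 and -0.26 in EPN2.

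Passing the test depended on whether the line was a term of the model. With the medium as the only term, edgeR's quasi-likelihood test called 6.97% of all genes at an adjusted p under 0.05 (2.87% higher, 4.10% lower), and among the members it called ERO1A and HSPB6 as lower and DNAJC5 and DNAJB6 as higher. With the line as a block, which removes the differences between lines, it called 10 of the 27 ER members as lower and 0 as higher (DESeq2 with the block called 1 as higher), a share of 37.0%. Over all genes it called 19.9%, with 10.4% lower and 9.48% higher. The 10 were HSPA5, HSP90B1, HYOU1, CALR, HSPA13, MANF, ERO1A, PDIA5, PDIA6 and XBP1. Among cytosolic members the blocked fit called DNAJC5, DNAJB6, DNAJA4 and HSPB8 as higher and HSPB6 as lower, and it called 0 of the 9 mitochondrial members, of which 5 had an unadjusted p under 0.05 in the fit without the line (27.3% of all genes did). For mitochondria DESeq2 called 2 members without and 7 with the block. It called 3 ER members as lower without the block and 13 with it. Over all genes DESeq2 called 18.5% without the block (9.18% higher, 9.36% lower) and 33.8% with it (17.6% higher, 16.2% lower). The blocked calls needed most of the lines: without Em 5 of the 10 were still called and 6.14% of all genes were lower, and without EPN2 7 of the 10 were (10.5%). Without LPN or without EPN1 it was 0, where 0.0829% and 0.0206% of all genes were called lower. CALR, MANF and XBP1 lost their blocked call whichever line was left out.

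Direction was more uniform than the calls. Of the 27 ER members 15 were lower in all 4 lines (55.6%, beside 24.2% of all genes) and 2 were higher in all 4 (23.9% of all genes). Among the 30 tested cytosolic members 5 were lower and 6 were higher in all 4 lines. For 3 ER members (ERO1A, ERO1B and HYOU1) every library in differentiation medium lay below every library in complete medium, which 9.96% of all genes did. Without the library of Em in complete medium the median of the ER members was -0.13.

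**Figure D1:**
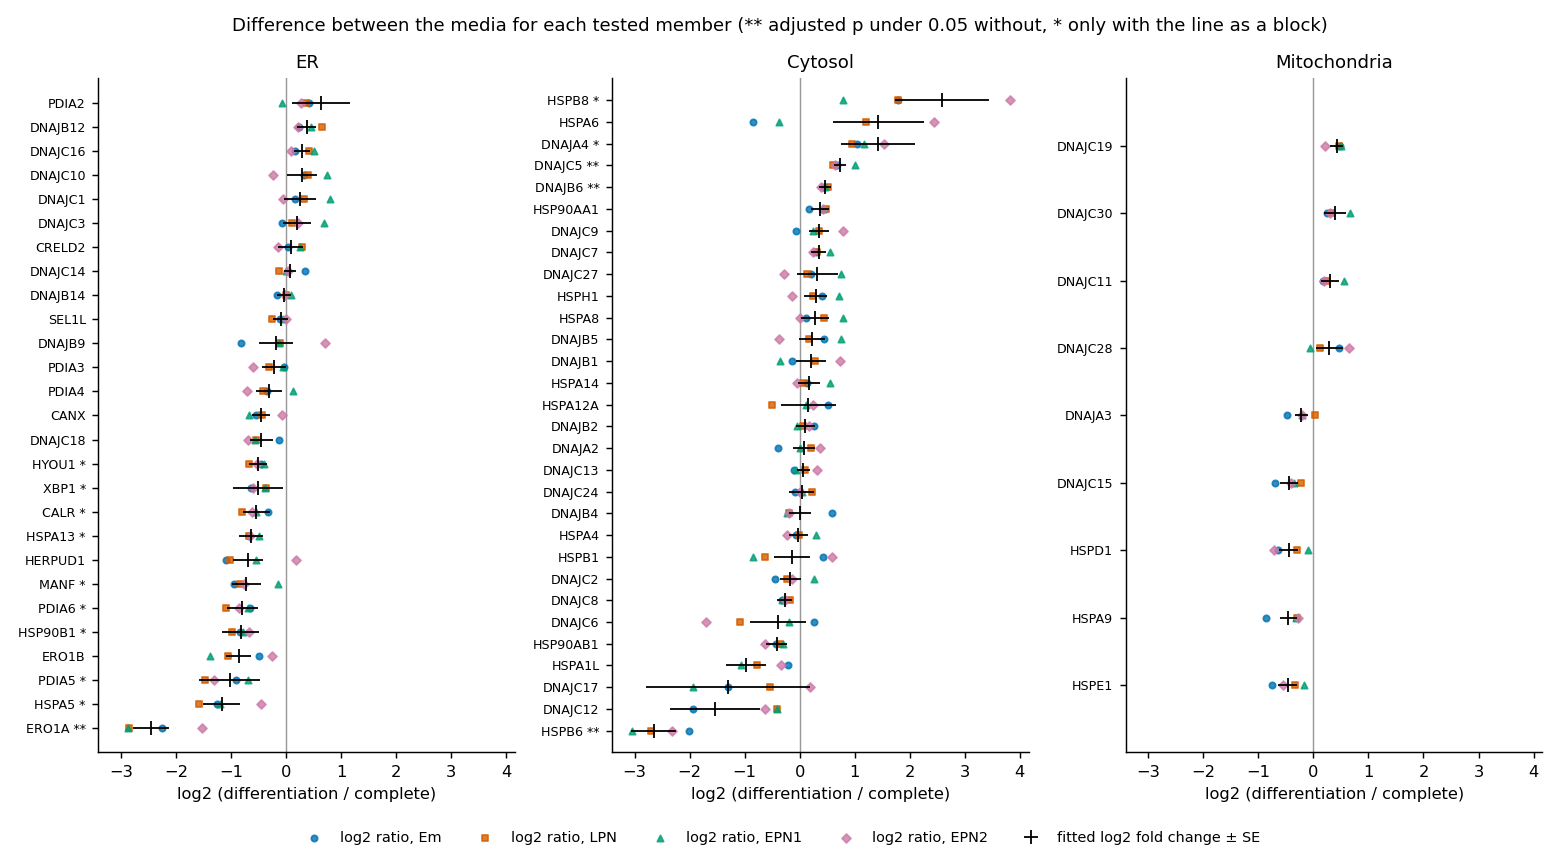
Difference between differentiation and complete medium for each tested member, on a log2 scale, by place in the cell. Coloured points are the 4 lines (CPM + 0.5), and black ticks with bars are the fold change ± SE of the edgeR fit without the line, from -2.45 for ERO1A to 0.64 for PDIA2 in the ER. Double asterisks mark an adjusted p under 0.05 without the line as a block and single asterisks only with it.

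The chaperones of the ER lumen were led by HSPA5, which encodes BiP, the central HSP70 of the ER, which also holds the stress sensors of the ER inactive. HSPA5 stood at 1006 CPM in Em, 635 in LPN, 708 in EPN1 and 355 in EPN2 in complete medium. In differentiation medium it stood at 421, 213, 309 and 260 CPM in the same order. It was lower in all 4 lines, and only EPN2 in complete medium overlapped with the other medium. The log2 fold change was -1.17 (SE 0.34), a 2.25-fold lower level. The adjusted p of edgeR was 0.0747 without and 0.0234 with the line as a block. In the fit without the line it was 0.034 when EPN2 in complete medium was left out. Omitting any other single library gave 0.072 to 0.169. In the blocked fit HSPA5 was still called when the EPN2 line was dropped (0.012). Dropping Em (0.062), LPN (0.109) or EPN1 (0.103) removed that call. HSP90B1, or GRP94, is the HSP90 of the ER and folds integrins and Toll-like receptors. Its levels were 812, 482, 598 and 338 CPM in complete medium (Em, LPN, EPN1 and EPN2) and 454, 245, 346 and 211 CPM in differentiation medium. Each line was lower by a similar factor, with log2 ratios of -0.84, -0.98, -0.79 and -0.68, but the media overlapped because the lines lay far apart. The fitted log2 fold change was -0.83 (SE 0.33, adjusted p = 0.154) without the block and -0.82 (SE 0.11, adjusted p = 0.0132) with it.

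HYOU1, the ER member of the HSP110 family that exchanges the nucleotide of BiP, was 235, 184, 191 and 178 CPM in complete and 171, 114, 144 and 124 CPM in differentiation medium. The libraries of the media did not overlap, and the log2 fold change was -0.51 (SE 0.16, adjusted p = 0.0955, and 0.0239 with the block). CALR (calreticulin), the soluble lectin chaperone, had 942, 663, 757 and 636 CPM in complete and 747, 379, 520 and 416 CPM in differentiation medium. It was lower in all 4 lines, although Em in differentiation medium exceeded 2 of the complete libraries, and its adjusted p was 0.198 without and 0.0330 with the block (log2 fold change -0.57, SE 0.12). CANX (calnexin), its membrane-bound relative, was lower in all 4 lines by a log2 fold change of -0.46 (SE 0.16) and passed in neither edgeR fit (adjusted p = 0.123, and 0.0770 with the block). In CANX the 4 libraries in differentiation medium were within 478 to 527 CPM, and EPN2 differed little between the media (507 and 483 CPM).

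HSPA13, a microsomal HSP70, had its highest level in EPN2 in both media. Its levels were 66.9, 67.5, 46.9 and 84.9 CPM in complete and 41.7, 41.9, 33.2 and 54.0 CPM in differentiation medium. The within-line log2 ratios lay between -0.68 and -0.49, and the blocked log2 fold change was -0.63 (SE 0.09, adjusted p = 0.0160, against 0.104 without the block). MANF, a secreted factor of the ER that binds BiP, was 93.6, 63.4, 43.7 and 51.4 CPM in complete and 48.3, 35.1, 39.3 and 30.1 CPM in differentiation medium. EPN1 changed least (log2 ratio -0.15), and the adjusted p was 0.123 without and 0.0396 with the block. CRELD2, which is usually induced along with MANF, had 11.5 to 21.6 CPM in complete and 13.8 to 19.4 CPM in differentiation medium. Its log2 fold change was 0.09 (SE 0.23, adjusted p = 0.835), and its sign turned when EPN1 in complete medium (-0.01) or EPN2 in differentiation medium (-0.01) was left out.

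**Figure D2:**
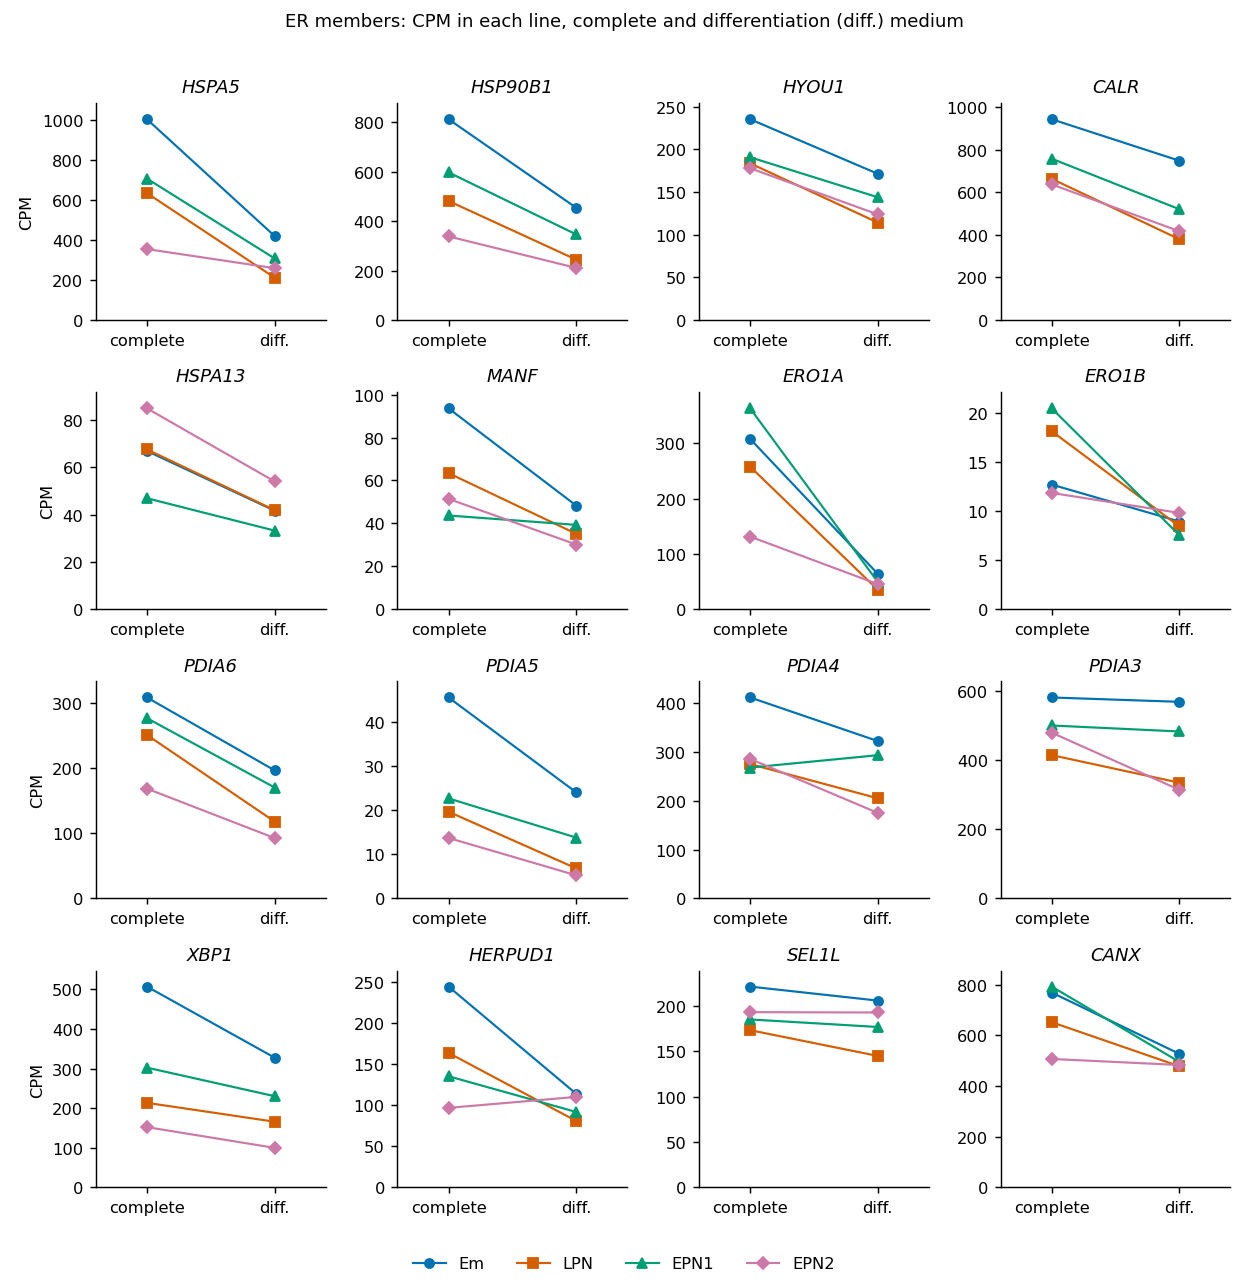
CPM (linear axes from 0) of 16 ER members in complete and differentiation (diff.) medium, with a line joining the 2 libraries of each PPDO line. ERO1A ends at 35.1 to 63.8 CPM from 131 to 363 CPM, HSPA5, HSP90B1, PDIA6 and XBP1 slope down in all 4 lines, and HERPUD1 and PDIA4 each have 1 line that does not.

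Of the disulfide enzymes, ERO1A differed most between the media of all 27 ER members. ERO1A reoxidizes the protein disulfide isomerases and is known as a gene induced by hypoxia. It was 308 CPM in Em, 258 in LPN, 363 in EPN1 and 131 in EPN2 in complete medium, and 63.8, 35.1, 49.2 and 45.2 CPM in differentiation medium. Every library in differentiation medium was below every library in complete medium, and EPN2, the lowest in complete medium, changed least. ERO1A fell by 2.45 on the log2 scale (SE 0.33), 5.48-fold, with an adjusted p of 0.0123 in edgeR and 0.0112 with the block. The call was lost when EPN1 in differentiation medium was left out (log2 fold change -2.46, adjusted p = 0.054), and in the blocked fit without LPN (0.063) or EPN1 (0.069). ERO1B, the isoform known from secretory tissues such as the islets, was 12.7, 18.1, 20.5 and 11.8 CPM in complete and 8.93, 8.43, 7.54 and 9.81 CPM in differentiation medium. The media did not overlap for ERO1B either, but its log2 fold change of -0.86 (SE 0.22) had adjusted p-values of 0.0584 without and 0.0622 with the block.

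The isomerases were not uniform. PDIA6, which binds BiP and its clients, was 309, 251, 277 and 169 CPM in complete and 197, 118, 170 and 92.7 CPM in differentiation medium, lower in every line and with the lines in the same order in both. PDIA5 was 45.7, 19.7, 22.7 and 13.7 CPM in complete and 24.1, 6.81, 13.8 and 5.23 CPM in differentiation medium. Both passed only with the block: for PDIA6 the log2 fold change was -0.83 (SE 0.11, adjusted p = 0.0151, against 0.117) and for PDIA5 it was -1.14 (SE 0.18, adjusted p = 0.0184, against 0.266). PDIA3, the partner of calnexin and calreticulin, differed by -0.22 (SE 0.22, adjusted p = 0.560), and PDIA4 by -0.32 (SE 0.24, adjusted p = 0.421). For PDIA3, Em (581 and 569 CPM) and EPN1 (500 and 483 CPM) were nearly level between the media, and for PDIA4, EPN1 was slightly higher in differentiation medium (268 and 293 CPM). PDIA2, an isomerase known from acinar cells, was at 0.0975 to 0.433 CPM in all 8 libraries, which is at most 18 counts, beside the 3 counts that a count of 0 allows (0.0626 to 0.0740 CPM). P4HB, the classical protein disulfide isomerase, carries no PDIA symbol and is not a member. It had 1015, 987, 1484 and 687 CPM in complete and 599, 360, 487 and 427 CPM in differentiation medium, without overlap, and fell by 1.16 on the log2 scale (SE 0.26, adjusted p = 0.0417).

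XBP1, the transcription factor whose spliced form drives much of the folding machinery, followed the lines more than the media. Its levels were 507, 214, 302 and 152 CPM in complete and 328, 166, 230 and 99.9 CPM in differentiation medium. Each line was lower in differentiation medium, by log2 ratios of -0.63 to -0.36, but the spread between lines was larger than the step between media. The adjusted p was 0.496 without and 0.0310 with the block (log2 fold change -0.50, SE 0.10), and gene counts do not separate the spliced from the unspliced form. Without the library of Em in complete medium the unblocked log2 fold change was -0.09. HERPUD1, an ER membrane protein of degradation, was 244, 164, 135 and 96.8 CPM in complete and 114, 80.9, 91.8 and 110 CPM in differentiation medium, so that 3 lines were lower and EPN2 was not. Its log2 fold change was -0.69 (SE 0.27, adjusted p = 0.153, and 0.110 with the block). SEL1L, the scaffold of the HRD1 ubiquitin ligase, had 173 to 221 CPM in complete and 145 to 206 CPM in differentiation medium, differing by -0.10 on the log2 scale (SE 0.14, adjusted p = 0.681).

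Of the 9 ER J proteins, which stimulate HSP70 and direct it to its tasks, 0 passed in edgeR without or with the block. An unadjusted p under 0.05 was found for 0 of them without the block, beside 27.3% of all genes. With the block it was found for 3 (DNAJC18, DNAJB12 and DNAJC16), in a fit where 19.9% of all genes passed even after adjustment. DESeq2 called 0 without the block and 2 with it, DNAJC18 as lower and DNAJB12 as higher, beside 18.5% and 33.8% of all genes. The 4 grouped with the lumen had a median log2 fold change of 0.23 and the 5 of the membrane of 0.07, beside -0.59 for the 8 lumenal chaperones and -0.80 for the 7 disulfide enzymes. DNAJC10, a reductase that serves degradation, was 193, 110, 102 and 173 CPM in complete and 243, 146, 172 and 146 CPM in differentiation medium, a difference of 0.29 on the log2 scale (SE 0.26, adjusted p = 0.513). DNAJC3, known as p58IPK, and DNAJC1, which spans the membrane with its J domain in the lumen, differed by 0.20 (SE 0.25) and 0.26 (SE 0.29). DNAJB9, a target of XBP1 that represses the sensor IRE1, was lower in differentiation medium in Em (27.8 and 15.6 CPM) and higher in EPN2 (10.1 and 16.7 CPM), with log2 ratios of -0.81 and 0.70. LPN and EPN1 differed little, by -0.11 and -0.13. Its log2 fold change of -0.19 (SE 0.32, adjusted p = 0.737) became 0.22 without Em in complete medium. DNAJC18, on the ER membrane, had the largest difference of the membrane group (-0.46, SE 0.21, adjusted p = 0.203, and 0.0545 with the block). DNAJB11 (ERdj3), a lumenal J protein that works with BiP, is listed in the table by identifier without a symbol and is not a member. It differed by 0.08 (SE 0.25, adjusted p = 0.869).

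The sum over the ER members was 7192, 4984, 5643 and 4268 CPM in complete medium (Em, LPN, EPN1 and EPN2) and 4930, 3120, 3975 and 3199 CPM in differentiation medium. Differentiation medium thus held 68.6%, 62.6%, 70.4% and 75.0% of the sum in complete medium, and Em in differentiation medium was close to LPN in complete medium. The cytosolic sum was 4827, 4446, 4371 and 5005 CPM in complete and 4648, 4788, 4739 and 5588 CPM in differentiation medium, higher in 3 lines and lower in Em. The mitochondrial sum was 828, 604, 598 and 663 CPM in complete and 543, 527, 554 and 517 CPM in differentiation medium, with no overlap between the media. These sums lean on the most abundant members and carry no test.

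**Figure D3:**
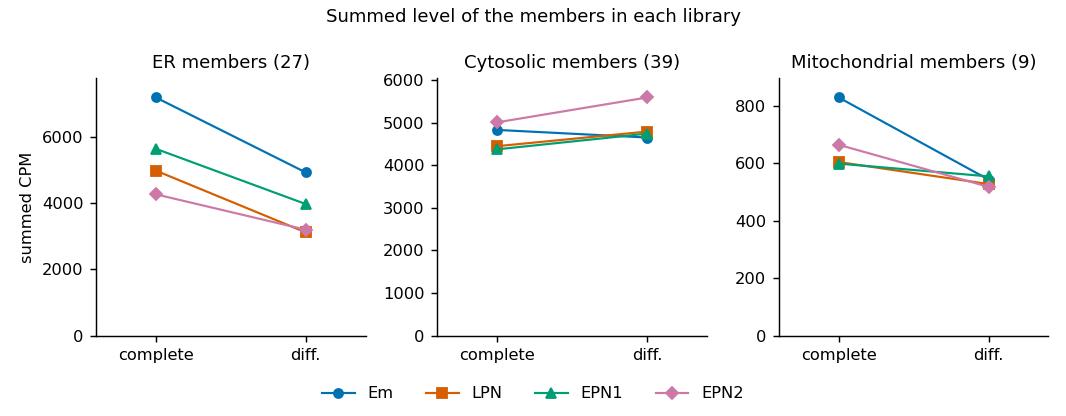
Summed CPM of the ER, cytosolic and mitochondrial members in each library, by medium, with a line joining the 2 libraries of each PPDO line and axes from 0. The ER sum drops in all 4 lines from 4268 to 7192 CPM down to 3120 to 4930 CPM, the cytosolic sum stays between 4371 and 5588 CPM, and the mitochondrial sum narrows to 517 to 554 CPM in differentiation medium.

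Among the lines, Em was the highest line for 15 of the 27 ER members in complete medium (55.6%, beside 28.2% of all genes) and for 18 in differentiation medium (66.7%, beside 30.0%), and EPN2 was the highest for 6 and 8. HSP90B1, PDIA5, PDIA6 and XBP1 had the order Em, EPN1, LPN, EPN2 in both media, as did the cytosolic DNAJC12 and DNAJC6, which 372 of 14475 genes (2.57%) shared. This order was not set beforehand and is not that of the stages, so the share only describes it and carries no test. An F test of edgeR for the lines, in a fit with medium and line, called HSP90B1 (adjusted p = 0.0398), PDIA5 (0.0398) and XBP1 (0.0207) of the ER and DNAJA4 (0.0310) of the cytosol, 4 of the 68 members tested (5.88%) beside 5.14% of all genes. The range between the line means was 1.18 for HSP90B1, 1.90 for PDIA5 and 1.72 for XBP1 on the log2 scale. Age of the donor and identity of the line cannot be told apart, since Em and LPN are 1 line each, and of the 2 early postnatal lines EPN1 was the second and EPN2 the lowest in this order. When 1 library was left out the count of called members ranged from 0 to 4, and DESeq2's likelihood ratio test called 19 (19.6% of all genes).

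**Figure D4:**
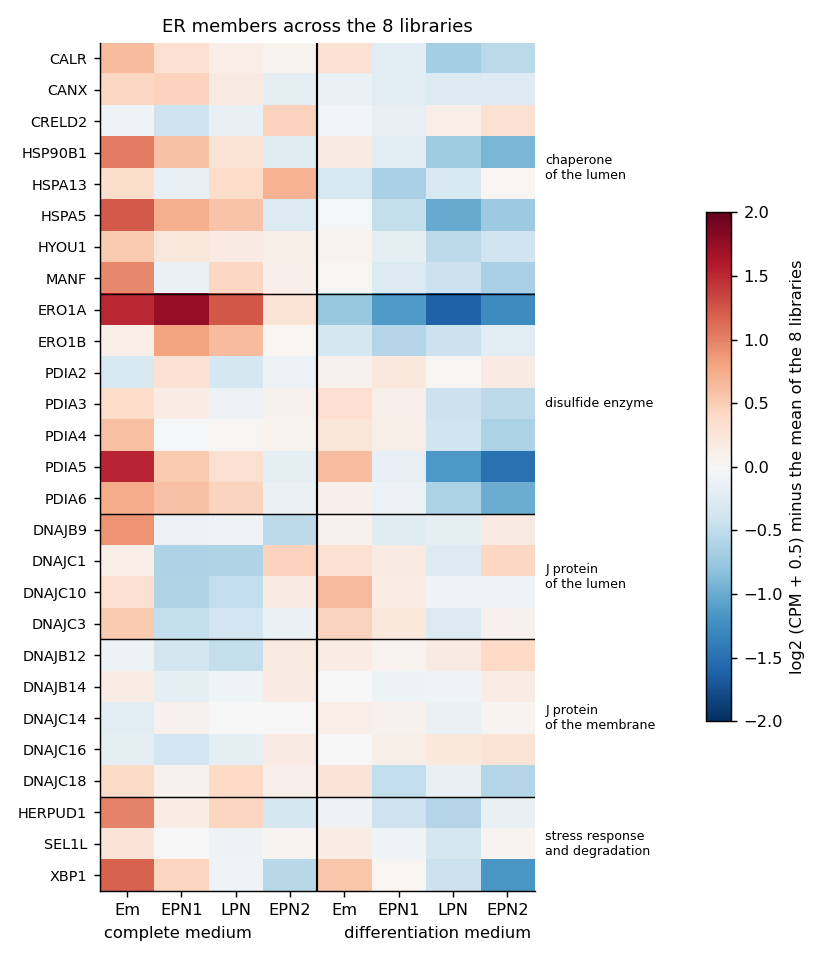
Log2 (CPM + 0.5) of the 27 ER members in the 8 libraries, minus the mean of each gene, with genes grouped by role and lines ordered Em, EPN1, LPN and EPN2 within each medium. Red marks levels above and blue below the gene's mean. ERO1A steps from red to blue between the media in all lines, PDIA5 and XBP1 also grade from Em to EPN2 within each medium, and the J proteins show no common step.

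In the cytosol, the differences of the HSP90 isoforms had opposite signs. HSP90AA1, the inducible isoform, was 908, 841, 784 and 1055 CPM in complete and 1018, 1175, 1045 and 1411 CPM in differentiation medium. HSP90AB1, the constitutive isoform, was 1792, 1653, 1921 and 1433 CPM in complete and 1328, 1291, 1551 and 923 CPM in differentiation medium. Neither passed in edgeR: the log2 fold change was 0.37 (SE 0.16, adjusted p = 0.187, and 0.0777 with the block) for HSP90AA1 and -0.42 (SE 0.19, adjusted p = 0.203, and 0.0611 with the block) for HSP90AB1, while DESeq2 with the block called both (adjusted p = 0.00219 and 0.00101). Within each library the log2 ratio of HSP90AA1 to HSP90AB1 was higher in differentiation medium in all 4 lines, by 0.60 in Em, 0.84 in LPN, 0.72 in EPN1 and 1.05 in EPN2, a mean of 0.80 ± 0.19 (SD, n = 4 lines). These near relatives share sequence, so that reads may be divided between them by the quantification. The ratio of the cytosolic HSPA8 to the ER HSPA5 differed by 1.46 ± 0.73 (SD, n = 4) in the same way, with EPN2 apart at 0.45, and that of HSP90AA1 to HSP90B1 by 1.19 ± 0.20.

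Of the cytosolic HSP70 and HSP110 genes, 7 of 8 were tested and 0 passed in edgeR, where 1 had an unadjusted p under 0.05 (HSPA1L) and DESeq2 without the block called that gene as lower (adjusted p = 0.0491). HSPA8, the constitutive HSC70, was 1019, 781, 562 and 1282 CPM in complete and 1105, 1054, 969 and 1281 CPM in differentiation medium, which differ by 0.28 on the log2 scale (SE 0.25, adjusted p = 0.514). HSPH1, which releases nucleotide from HSP70, differed by 0.29 (SE 0.21, adjusted p = 0.394). HSPA6, a strictly stress-inducible HSP70, spread most between the lines. It had 4.66, 6.75, 5.43 and 7.48 CPM in complete and 2.35, 16.3, 4.07 and 42.8 CPM in differentiation medium, higher in LPN and EPN2 and lower in Em and EPN1, for a log2 difference of 1.43 (SE 0.82, adjusted p = 0.294). The stress-induced genes HSPA1A and HSPA1B were not analysed here.

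Among the cytosolic J proteins, 18 of 23 were tested and DNAJC5 and DNAJB6 rose. DNAJC5 (cysteine string protein alpha) sits on secretory vesicles, where it keeps exocytosis proteins folded. It was 69.5, 67.5, 57.7 and 69.0 CPM in complete and 112, 102, 117 and 107 CPM in differentiation medium. The media were well apart and the lines close together, at a log2 difference of 0.73 (SE 0.10, adjusted p = 0.0139, and 0.0162 with the block). When EPN1 in differentiation medium was left out the adjusted p was 0.060, and in the blocked fit it was 0.087 without LPN and 0.074 without EPN1. DNAJB6, a suppressor of aggregation that also binds keratin filaments, was 72.6, 71.5, 75.0 and 87.5 CPM in complete and 99.0, 102, 104 and 114 CPM in differentiation medium. Its libraries did not overlap, and its log2 fold change was 0.45 (SE 0.11, adjusted p = 0.0453, and 0.0237 with the block). Leaving out any 1 library other than EPN2 in complete medium took its adjusted p to between 0.069 and 0.134. In the blocked fit it was 0.053 without Em, 0.149 without LPN and 0.097 without EPN1. The non-overlapping higher members of the cytosol were 3, beside 8.82% of all genes.

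DNAJA4, a heat-inducible J protein, was 1.36, 2.92, 1.66 and 5.86 CPM in complete and 3.32, 6.12, 4.32 and 17.7 CPM in differentiation medium. Every line was higher, by log2 ratios of 0.95 to 1.52, and EPN2 was the highest in both media. DNAJA4 passed with the block (log2 fold change 1.33, SE 0.19, adjusted p = 0.0159) and not without it (1.42, SE 0.67, adjusted p = 0.216), and without EPN2 in differentiation medium the unblocked value was 0.64. In the blocked fit its adjusted p was 0.080 without LPN and 0.080 without EPN1. DNAJB1, the main cytosolic J protein of the heat shock response, was 106, 122, 135 and 137 CPM in complete and 95.7, 148, 104 and 227 CPM in differentiation medium, higher in LPN and EPN2 and lower in Em and EPN1. Its log2 fold change of 0.20 (SE 0.27, adjusted p = 0.664) was -0.10 without EPN2 in differentiation medium. DNAJC12, a partner of aromatic amino acid hydroxylases, was 10.2 CPM in Em in complete medium, 2.31 CPM in Em in differentiation medium and at most 1.64 CPM elsewhere. DNAJC17, a nuclear J protein of splicing, ranged from 0 to 5.83 CPM. DNAJA1, which the table lists by identifier without a symbol, differed by 0.31 on the log2 scale (SE 0.15, adjusted p = 0.221).

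Small heat shock proteins gave the largest differences of the cytosol, in opposite directions. HSPB6 (Hsp20), known from muscle as a relaxant, was 18.0, 11.2, 17.6 and 18.6 CPM in complete and 4.06, 1.29, 1.70 and 3.32 CPM in differentiation medium. It fell by 2.66 on the log2 scale (SE 0.41), 6.31-fold, with no overlap, and its adjusted p was 0.0169 without and 0.0093 with the block. The call was lost without EPN1 in complete (adjusted p = 0.055) or in differentiation medium (0.062), and in the blocked fit without LPN (0.057) or EPN1 (0.060). HSPB8, which works with BAG3 in the autophagy of damaged filaments, was 11.0, 28.0, 49.8 and 37.2 CPM in complete and 39.1, 98.0, 86.3 and 532 CPM in differentiation medium. All 4 lines were higher, EPN1 least and EPN2 by far the most, and the media overlapped because Em was low. The log2 fold change of HSPB8 was 2.58 (SE 0.86, adjusted p = 0.104) without and 2.03 (SE 0.51, adjusted p = 0.0460) with the block. Without EPN2 in differentiation medium it was 1.24, and in the blocked fit without the line EPN2 it was 1.48 (adjusted p = 0.025), but without Em, LPN or EPN1 the adjusted p was 0.097, 0.150 or 0.089.

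HSPB1 (Hsp27), a chaperone of actin filaments, was 82.1, 205, 181 and 136 CPM in complete and 111, 133, 100 and 203 CPM in differentiation medium. It was higher in Em and EPN2 and lower in LPN and EPN1 (log2 fold change -0.14, SE 0.33, adjusted p = 0.807), and its sign turned without LPN in complete medium (0.04). HSPB3, HSPB7 and HSPB9 had at most 10 counts in every library and were not tested. The library of EPN2 in differentiation medium held the highest level of HSPB8, HSPA6, DNAJA4, DNAJB1 and HSP90AA1. HSPB1, HSPH1 and DNAJA1 reached their highest levels in other libraries. HSPH1 was 42.6 CPM in EPN2 and 55.4 CPM in Em in differentiation medium. In that medium EPN2 was the highest line for 15 of the 30 tested cytosolic members (50%), beside 34.8% of all genes. It was also the library with the lowest sum of duct markers, and in that medium the lowest line for 6 of the 8. Its levels were 425 CPM of KRT8 and 45.2 CPM of KRT18, beside 1459 to 4906 and 247 to 1398 CPM in the other libraries in that medium. The part of this in the values of EPN2 was not tested.

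**Figure D5:**
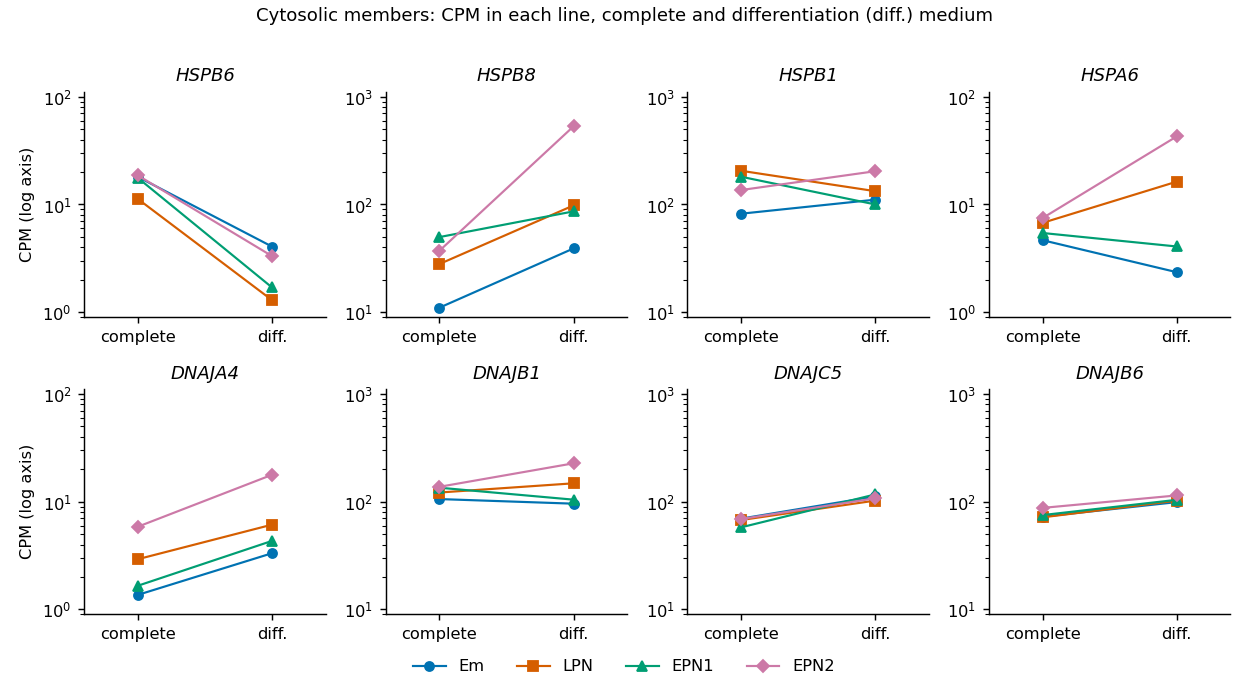
CPM of 8 cytosolic members in complete and differentiation (diff.) medium on log axes, with a line joining the 2 libraries of each PPDO line. HSPB6 drops from 11.2 to 18.6 CPM to 1.29 to 4.06 CPM and DNAJC5 and DNAJB6 rise in all lines, while HSPB8, HSPA6, DNAJA4 and DNAJB1 reach their highest levels in EPN2 in differentiation medium.

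The chaperones of the mitochondrial matrix were lower in differentiation medium in all 4 lines without passing in edgeR. HSPA9 (mortalin), the HSP70 of the matrix and the motor of protein import, was 310, 219, 202 and 232 CPM in complete and 169, 178, 162 and 191 CPM in differentiation medium. HSPD1 (HSP60), the matrix chaperonin, was 234, 154, 173 and 206 CPM in complete and 150, 125, 161 and 125 CPM in differentiation medium, and HSPE1 (HSP10), its lid, was 136, 101, 93.8 and 88.9 CPM and 81.1, 79.4, 83.3 and 60.4 CPM. The media did not overlap for HSPA9 and HSPE1, and for HSPD1 EPN1 in differentiation medium lay above LPN in complete medium. Their log2 fold changes were -0.46, -0.45 and -0.46 (SE 0.15, 0.16 and 0.17), with adjusted p-values of 0.107, 0.128 and 0.133 without and 0.0719, 0.0717 and 0.0555 with the block, and DESeq2 with the block called all 3 (0.0346, 0.0341 and 0.0174). HSPD1 and HSPE1 are neighbours on pig chromosome 15, where RefSeq places HSPD1 at 101360355 to 101373498 and HSPE1 at 101374019 to 101376146 of Sscrofa11.1, 520 bases apart. The mitochondrial J proteins went both ways: DNAJC15 differed by -0.44 (SE 0.16, adjusted p = 0.129) and DNAJC30 by 0.40 (SE 0.20, adjusted p = 0.234). DNAJC19, a subunit of the import motor, was 19.0 to 19.8 CPM in complete and 22.8 to 27.3 CPM in differentiation medium, a difference of 0.43 on the log2 scale (SE 0.12, adjusted p = 0.0670), and it is named here after its values were seen. The 2 members without an assigned place, DNAJC22 and HSPB11, an intraflagellar transport protein, did not pass: DNAJC22 was 8.87 to 9.88 CPM in Em and 0.187 to 3.55 CPM in the other lines, and HSPB11 was 2.36 to 3.73 CPM in all libraries. DNAJC25, also without an assigned place and listed by identifier only, differed by 0.34 on the log2 scale (SE 0.23, adjusted p = 0.376).

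Other genes of these pathways, in lists chosen with earlier results of these data known, are given by counts. In the edgeR fit without the line, 2.87% of all genes were called higher and 4.10% lower, and 27.3% had an unadjusted p under 0.05. With the line as a block, 9.48% were called higher and 10.4% lower. Of 20 further ER folding and quality control genes, 3 fell and 0 rose (7 and 1 with the block), with a median log2 fold change of -0.30. The 3 were P4HB, PRDX4 and TMX1, and of the 20 genes 15 had a lower and 5 a higher fitted level. The peroxiredoxin PRDX4 went from 114 ± 30.9 to 48.9 ± 15.5 CPM (SD, n = 4) and the membrane oxidoreductase TMX1 from 106 ± 10.5 to 74.3 ± 3.09 CPM. Of 17 genes of ER-associated degradation, EDEM1, a lectin that extracts misfolded glycoproteins, fell by 1.24 on the log2 scale (SE 0.28, adjusted p = 0.0427) and UFD1, a cofactor of the p97 segregase, rose by 0.90 (SE 0.18, adjusted p = 0.0301), and the median was 0.17. For EDEM1, Em was nearly level between the media (35.7 and 31.0 CPM). Of 21 genes of translocation and glycosylation, SEC61G of the translocon fell (from 87.1 ± 33.3 to 40.7 ± 3.10 CPM), and 4 fell with the block. For sensors and transcription factors of the unfolded protein response, 11 entries of 10 symbols were tested, with DDIT3 under 2 identifiers. Of these entries, 0 passed without the block (3 had an unadjusted p under 0.05, and DESeq2 called 2 as lower). With the block 2 passed, ATF6 (log2 fold change -0.36, adjusted p = 0.0453) and CREB3L1 (-1.59, adjusted p = 0.0209), both lower in all 4 lines.

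In the cytosol, 0 of 18 heat shock factors and co-chaperones passed without the block (3 had an unadjusted p under 0.05, and DESeq2 called 1 as higher) and 3 were lower with it, namely ST13, PTGES3 and FKBP5, which are partners of HSP70 and HSP90. The chaperonin and prefoldin genes, which fold actin and tubulin, had 4 of 13 called as lower (CCT7, PFDN4, VBP1 and CCT4) and 6 with the block. CCT7 went from 323 ± 27.5 to 159 ± 26.2 CPM (log2 fold change -1.02, SE 0.15, adjusted p = 0.0157). Between the media, 8 of the 13 were lower without overlap, beside 9.96% of all genes. Of 9 other mitochondrial folding and protease genes, SPG7 and CLPP fell, with log2 fold changes of -0.61 (SE 0.11, adjusted p = 0.0227) and -0.67 (SE 0.14, adjusted p = 0.0327).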

How the data were processed

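RNA of 4 PPDO lines in 2 media was selected by poly(A) tail and sequenced by the authors, who ran salmon within an nf-core pipeline against a pig genome with custom annotation. The values the authors deposited are estimated counts per gene. The table is labelled as raw counts, whereas the methods of the study took counts scaled by gene length into their own tests, and the values do not show which of these the table holds. The submitters' processing notes list the builds GRCh38 and Sscrofa11.1, without saying which served this table. The table had 56060 rows. The rows of a gene (with suffixes -iso and -ext) were summed and rounded, and 8 reporter rows (0.00142% of counts) were left out. Of the 77 members, 72 carry the same symbol in a separate table of gene names, 5 are not listed there, and all 77 were found by symbol in RefSeq. Counts of 3 members (DNAJB7, DNAJB8 and DNAJC5G) were 0 in every library, which allows up to 3 counts (0.0626 to 0.0740 CPM, counting error only). A further 6 had at most 10 counts in every library, and 68 members were tested.

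Libraries were assigned to media by sample titles and to lines by column names, since no column name shows a replicate number. Lines were grown in both media, and the line was the replicate block. After removal of the mean of each medium, libraries of the same line correlated at 0.400 to 0.657 and those of different lines at -0.479 to 0.242. Without the block, a p-value rests on the spread between the 4 lines within each medium and leaves out the pairing of libraries by line. With the block, and in the F test for the lines, it rests on the spread that line and medium do not account for. Each line had 1 culture per medium.

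The test was the quasi-likelihood test of edgeR 4.0.16 in R 4.3.3 with TMM, the default expression filter, medium as the only term and Benjamini-Hochberg adjustment over 14475 genes, with a threshold of 0.05. SE is the log2 fold change divided by the square root of F. Within-line log2 ratios used CPM + 0.5. Alternatives were the line block, DESeq2 1.42.0 size factors and tests, no filter, -ext rows left out, and leaving out each library or line. The scripts were tested on simulated data. Tables used pandas 2.3.3 and plots matplotlib 3.10.9. Members named are those past the threshold in either edgeR fit, a list of well-known chaperones, and in each role group the member with the largest difference and that with the largest spread between lines. The members, the gene lists and these rules were chosen with earlier results of these data known. No protein or promoter sequences were analysed here.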

Additional observations from a re-analysis of the deposited data

Results flagged for a closer look

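In 96 groups of 4 libraries (1 gene or summed level in 1 medium), 8 had a library whose gap to the nearest other, divided by the range of the group, was above Dixon's critical value. Chance alone flags about 1 in 20 groups that were not chosen by their values. Some members here were named for a large difference or a large spread between lines, so that rate is no measure for these groups. Em in complete medium stood apart 4 times: PDIA4 at 411 CPM (the others 268 to 286), DNAJC12 at 10.2 CPM (1.18 to 1.64), DNAJC22 at 9.88 CPM (0.951 to 1.35) and the summed level of the 2 members without an assigned place at 13.6 CPM (3.93 to 4.02), which rests on DNAJC22. EPN2 in differentiation medium stood apart 3 times, for HSPB8 at 532 CPM (39.1 to 98.0), for HSPE1 at 60.4 CPM (79.4 to 83.3) and for the summed cytosolic members at 5588 CPM (4648 to 4788). HSPB6 was low in LPN in complete medium at 11.2 CPM (17.6 to 18.6).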

How the results depend on the processing

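Of 43 named members, 37 kept the direction of their fold change under all 18 alternative fits. The range over leave-one-out fits was -0.36 to 0.22 for DNAJB9, -0.011 to 0.296 for CRELD2, -0.10 to 0.36 for DNAJB1, -0.40 to 0.13 for HSPB1, -0.046 to 1.79 for HSPA6 and -1.02 to 1.60 for DNAJC22, none of which passed, and DNAJC22 was also -0.12 in edgeR and -0.13 in DESeq2 with the line as a block. Calls over all genes numbered 1009, and 506 without the filter, 3026 with DESeq2, 2884 with the line as a replicate block in edgeR (991 of the 1009 among them) and 5597 with the block in DESeq2. In the same order as the last 3, the calls were 3, 10 and 14 for ER members, 5, 5 and 10 for cytosolic members, and 2, 0 and 7 for mitochondrial members. Leaving out 1 library or line gave 8 to 2989 calls over all genes, 0 to 10 for ER and 0 to 5 for cytosolic members. Without the block the range over all genes was 70 (without EPN1 in differentiation medium) to 1199, and the block fits without LPN (22) or EPN1 (8) were left with 3 lines. Medians over leave-one-out fits were -0.50 to -0.13 for ER and 0.025 to 0.177 for cytosolic members, and the cytosolic median was 0.15 both with DESeq2 size factors and with DESeq2. For the lines, DESeq2 called 19 members, and leaving out a library gave 0 to 4. Scaling by DESeq2 size factors and leaving out -ext rows moved no call count by over 1.5 times. With 4 lines, 2 of them the only line of their stage, passing depended on the spread between lines as well as on the size. Without the block DNAJB6 passed at a log2 fold change of 0.45 (SE 0.11) and HSPB8 did not at 2.58 (SE 0.86). A member that did not pass is therefore not shown to be unchanged.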
